A study of Branchiostoma lanceolatum with 24 samples.

Results

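The response to 3 h of SU5402 in late embryos of the European amphioxus, Branchiostoma lanceolatum, was taken from 4 of the 24 RNA-seq libraries of the series. The SU5402 group (2 libraries) was kept from 15.5 hours post-fertilisation (hpf) in sea water with 50 µM SU5402 and frozen at 18.5 hpf. The control group (2 libraries) was kept in 0.1% DMSO, the solvent, over the same hours. The labels give no DMSO content for the SU5402 group. Each library came from a mix of whole embryos of unstated number, and the labels name no genotype or strain. The same treatment was also collected at 21.5 and 24.5 hpf, after 6 and 9 h. An early series, treated from 5 hpf and collected at 8, 11 and 14 hpf, had the same layout of 2 SU5402 and 2 DMSO libraries at each time. All 96094 contigs (assembled pieces of transcript) of the deposited count table were used.

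The compound SU5402 inhibits the kinase activity of fibroblast growth factor (FGF) receptors. FGF ligands bind these receptor tyrosine kinases at the cell surface, and the receptors signal largely through Ras and the MAP kinase ERK to ETS-family transcription factors. In vertebrates the pathway switches on its own inhibitors, among them Sprouty proteins and the phosphatase Dusp6. In amphioxus, FGF signalling is known to be needed in the gastrula for the anterior somites, the paired blocks of mesoderm that form muscle. The contigs bear identifiers only, and 0 of 96094 matched the gene table given for the species, so FGF ligands, receptors, feedback inhibitors and tissue markers could not be followed by name, and the embryonic identity of the samples was not checked against markers.

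The 4 libraries held 27687922 to 37137241 reads, within the range of 10866511 to 39988564 of all 24. Counts of replicate libraries were not interchangeable in any late group, the chi-square per degree of freedom being 1.32 to 5.69. Their biological coefficient of variation, the spread beyond counting error, was 6.81% in the SU5402 pair and 7.36% in the DMSO pair at 18.5 hpf, and 6.83% in the joint fit of the 12 late libraries, which supplied the spread for every late test. It was 27.2% in the fit of the 12 early libraries. The labels do not say whether replicates are separate batches of embryos, and the p-values therefore refer to the variation among these libraries, part of which may be technical.

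After 3 h of late treatment 11995 contigs rose and 10201 fell, which was 16.4% and 14% of the 73087 tested (edgeR quasi-likelihood test, Benjamini-Hochberg adjusted p under 0.05). The sizes were unequal. The median log2 fold change, SU5402 over DMSO, was 1.21 for the risen contigs and -0.65 for the fallen ones, while it was 0 over all contigs tested. More than 4-fold changes were estimated for 3615 risen (30.1%) and 277 fallen contigs (2.72%). Changes under 1.5-fold were estimated for 2352 risen (19.6%) and 4361 fallen contigs (42.8%). When each contig was tested against a 2-fold change instead of against no change, 3632 lay beyond it upward (4.97%) and 430 downward (0.588%). The downward count was 210 with limma-voom and 196 in a single fit of all 24 libraries, and the upward count was 2418 among contigs with at least 1 CPM in 2 libraries. In whole embryos, fewer cells of a type and less RNA per cell cannot be told apart.

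The calls leaned towards rises under every scaling tried, and the share of risen among all calls ran from 52.8% to 61.5%. The single fit of all 24 libraries, whose common spread includes the wider early replicates, called 7509 risen and 4179 fallen contigs. DESeq2's Wald test called 7757 and 6341.

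**Figure D1:**
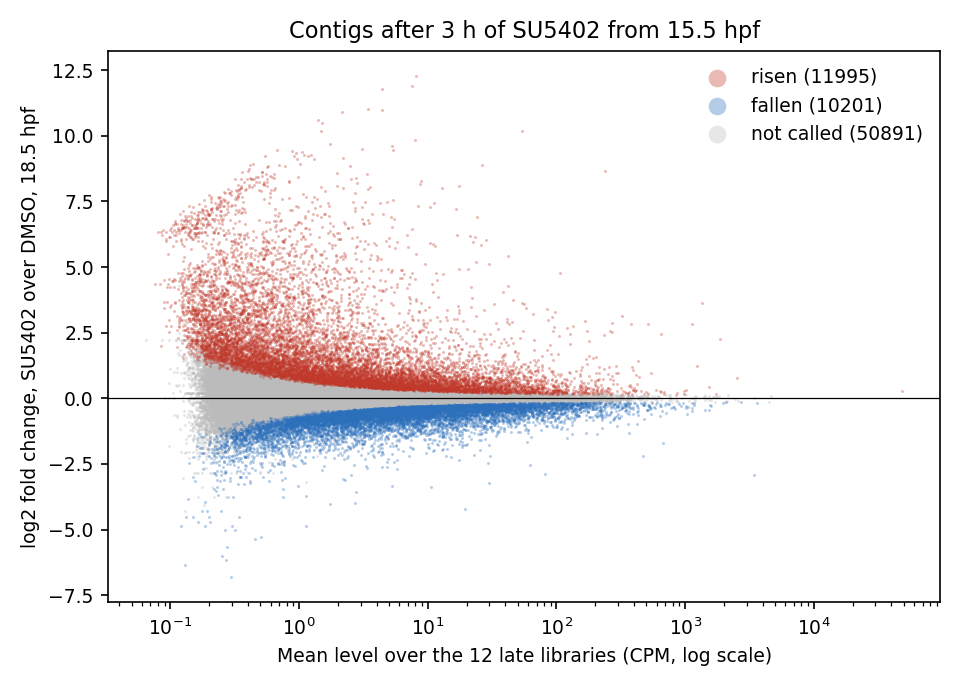
Log2 fold change of SU5402 over DMSO at 18.5 hpf for each contig tested, against its mean level over the 12 late libraries in CPM (log axis). The 11995 risen contigs reach far from 0 at low levels, while most of the 10201 fallen ones lie close under the line.

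The reads moved with the calls. Contigs called risen held 24.6% and 24.2% of the reads of the SU5402 libraries, against 15.3% and 16.2% of the DMSO libraries. Contigs called fallen held 25.2% and 25.4% of the SU5402 libraries, against 35% and 34% of the DMSO libraries. The 3632 contigs beyond 2-fold upward took 3.86% and 3.84% of the SU5402 reads, against 0.759% and 0.712% of the DMSO reads. For the 430 beyond 2-fold downward the shares were 0.4% and 0.394% in SU5402, against 2.07% and 1.29% in DMSO. ContigAmph68708 alone, described singly further on, held 0.123% and 0.111% of the SU5402 reads, against 1.25% and 0.495% of the DMSO reads, and so most of the gap between the DMSO libraries. These shares were computed on the libraries that made the calls and only describe their weight.

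The size and direction of the response varied with level. Level is given as CPM, the read count scaled to library size and averaged here over the 12 late libraries. Among the 29611 contigs under 1 CPM, 16.3% rose and 4.76% fell. Between 1 and 10 CPM the shares were 15.8% and 16.2% of 31471 contigs. Between 10 and 100 CPM 18.6% rose and 30.3% fell of 10480, and at 100 CPM and above 15.9% rose and 32.8% fell of 1525. From called and uncalled contigs alike, the median log2 fold change in a class was 0.15, -0.04, -0.07 and -0.05 from the lowest to the highest class. Beyond 2-fold, rises outnumbered falls in each class. There were 2168 rises and 107 falls under 1 CPM, 1195 and 212 between 1 and 10 CPM, 239 and 104 between 10 and 100 CPM, and 30 and 7 at 100 CPM and above. Rare contigs have few reads to test with, and the classes were not compared by a test.

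**Figure D2:**
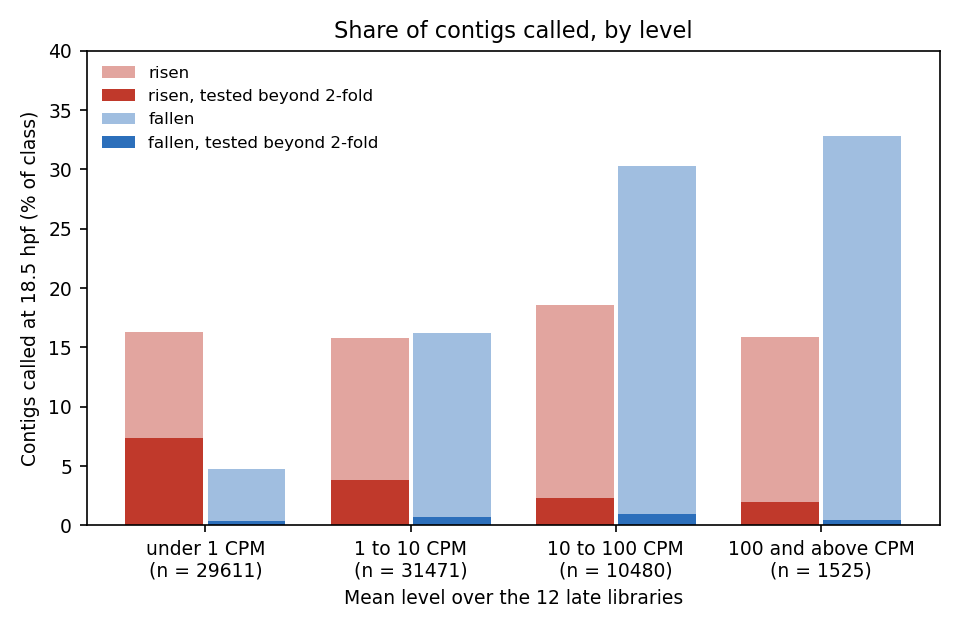
Share of contigs called risen or fallen at 18.5 hpf in 4 classes of mean level (CPM over the 12 late libraries), with the share tested beyond 2-fold in full colour. The risen share stays between 15.8% and 18.6%, while the fallen share goes from 4.76% in the rarest to 32.8% in the most abundant class.

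Without gene names, only 4 contigs are described singly. In each direction they are the one with the smallest p and the one with the largest difference in mean CPM, among called contigs with at least 10 reads in all 4 libraries.

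ContigAmph24501 was the risen contig with the smallest p. It held 15549 and 15417 reads in the SU5402 libraries, against 51 and 38 reads in the DMSO libraries, or 527 and 512 CPM against 1.68 and 0.98 CPM. Nothing overlapped, and the log2 fold change was 8.66 (SE 0.13, adjusted p = 3.5e-26, edgeR quasi-likelihood test). The contig stayed high at 21.5 hpf, at 466 ± 26.7 CPM in SU5402 and 1.26 ± 0.246 CPM in DMSO embryos (SD, n = 2), and at 24.5 hpf, at 427 ± 49.9 CPM in SU5402 and 1.86 ± 0.156 CPM in DMSO embryos. Its log2 fold change was smaller at 9 h than at 3 h by 0.83 (SE 0.21, adjusted p = 0.0076, edgeR), but without DMSO late 3 h replicate 2 the change was -0.44 (adjusted p = 0.26) and without DMSO late 9 h replicate 2 it was -0.73 (adjusted p = 0.059). For that change limma-voom gave an adjusted p of 0.083 and the single fit of all 24 libraries 0.079. With early treatment the rise at 3 h was smaller, the difference late minus early being 3.93 on the log2 scale (SE 0.38, adjusted p = 1.8e-06, limma), and the contig then reached 560 ± 9.18 CPM in early SU5402 embryos at 14 hpf.

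ContigAmph3515 had the largest gain in CPM and held 3.9% to 13.6% of the reads of each of the 24 libraries. It stood at 54531 and 51343 CPM in SU5402, against 37650 and 49657 CPM in DMSO libraries. The groups did not overlap, but the higher DMSO library lay close to the SU5402 pair. The log2 fold change was 0.29 (SE 0.065, adjusted p = 0.00092, edgeR quasi-likelihood test). It rested on DMSO replicate 1, without which it was 0.1 (adjusted p = 0.086), and the single fit of all 24 libraries gave an adjusted p of 0.055. At 24.5 hpf the direction was the opposite, with 44690 ± 1470 CPM in SU5402 and 50559 ± 970 CPM in DMSO embryos (SD, n = 2). That log2 fold change was -0.19 (adjusted p = 0.038, edgeR), and the shift from 3 h to 9 h was -0.48 (SE 0.092, adjusted p = 0.00046, edgeR). Without DMSO late 3 h replicate 1 that shift was -0.29 and without replicate 2 it was -0.68, both called. In the early series the 3 h log2 fold change of the same contig was 0.35 with SE 0.083 (edgeR adjusted p = 0.017).

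ContigAmph11043 was the fallen contig with the smallest p. It had 74 and 108 reads in the SU5402 libraries, against 852 and 1170 in the DMSO libraries, which is 2.51 and 3.59 CPM against 28.1 and 30.2 CPM. The log2 fold change was -3.24 (SE 0.12, adjusted p = 1.4e-17, edgeR quasi-likelihood test). In the 12 early libraries, up to 14 hpf, the same contig had 0 to 6 reads. It was thus hardly detected at 14 hpf and plainly present in controls at 18.5 hpf. Its level in SU5402 embryos was higher at each later collection, at 16 ± 1.31 CPM against 39.4 ± 0.446 CPM in DMSO embryos at 21.5 hpf and 39.5 ± 3.93 CPM against 53.5 ± 0.212 CPM at 24.5 hpf (SD, n = 2). The effect moved towards 0 by 1.93 between 3 and 6 h (SE 0.17, adjusted p = 5.7e-09) and by 2.8 between 3 and 9 h (SE 0.15, adjusted p = 1.7e-13) on the log2 scale, by edgeR's test of the difference. SU5402 embryos were still below controls at 24.5 hpf (log2 fold change -0.45 with SE 0.089, edgeR adjusted p = 0.00042).

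ContigAmph68708 had the largest loss in CPM and the least steady replicates of the 4. Its SU5402 libraries stood at 1152 and 1040 CPM, against 12071 and 4738 CPM in the DMSO libraries. The log2 fold change was -2.93 (SE 0.7, adjusted p = 0.0017, edgeR quasi-likelihood test), and 0.078 was its adjusted p in the single fit of all 24 libraries. Elsewhere in the series single libraries of a pair stood far apart, such as 15037 and 384 CPM in SU5402 embryos at 21.5 hpf. There DMSO embryos had 1015 and 1883 CPM, the groups overlapped, and the log2 fold change was 2.4 (adjusted p = 0.011, edgeR). The fall at 18.5 hpf was called with any 1 of its 4 libraries left out, and its log2 fold change was -2.1 without DMSO replicate 1 (adjusted p = 0.02, edgeR) and -3.47 without DMSO replicate 2.

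**Figure D3:**
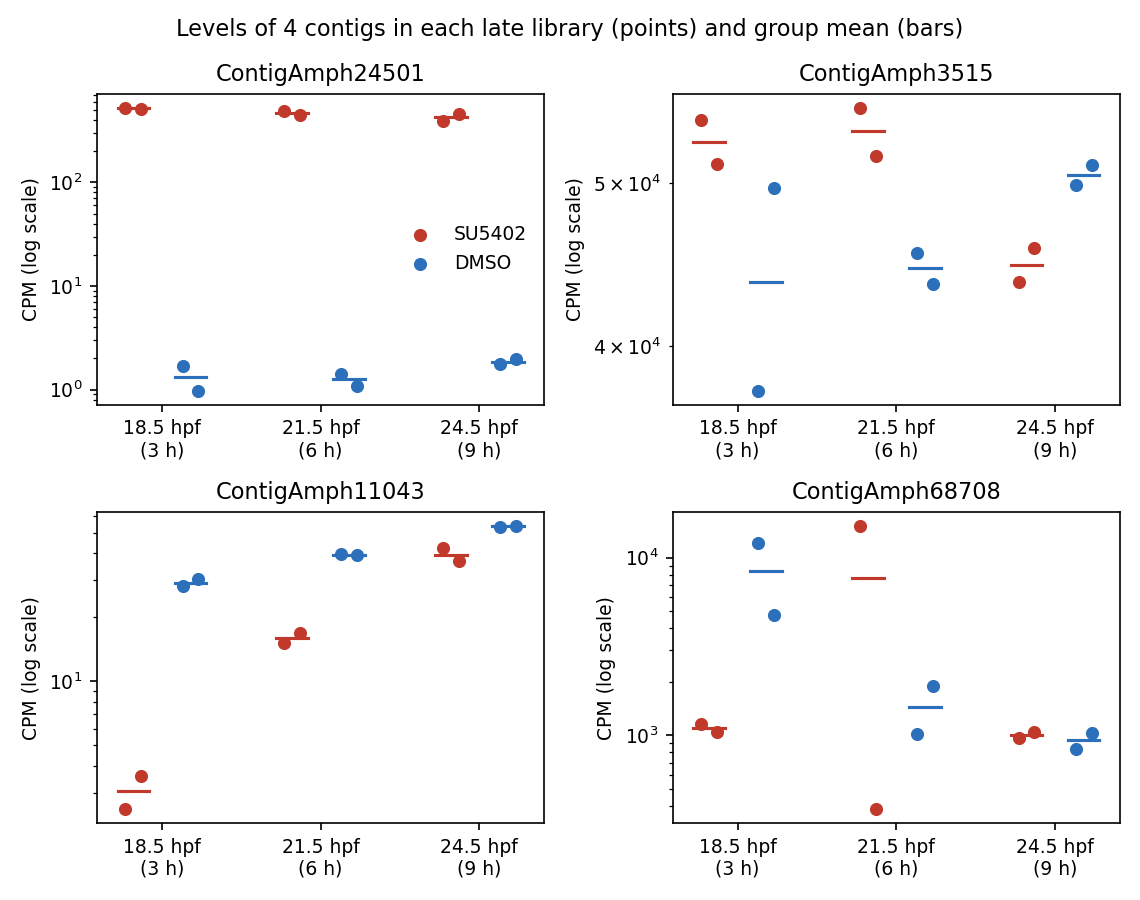
Level in CPM (log axis) of the 4 contigs in each late library at 18.5, 21.5 and 24.5 hpf, SU5402 in red and DMSO in blue, with bars at the mean of 2 libraries. ContigAmph24501 stays high with SU5402, ContigAmph11043 approaches its control level by 24.5 hpf, and ContigAmph3515 and ContigAmph68708 show spread within pairs as wide as some differences between groups.

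Many of the calls at 3 h were found again in the embryos collected later, which were other libraries with their own controls. Of the 11995 contigs risen at 3 h, 5400 (45%) were risen at 6 h and 4224 (35.2%) at 9 h, where the shares of all contigs risen were 11% and 11.7%. These made up 67.5% of the 8005 contigs risen at 6 h and 49.4% of the 8543 risen at 9 h. Of the 10201 fallen, 4734 (46.4%) were fallen at 6 h and 3242 (31.8%) at 9 h, against 10.6% and 11.2% of all contigs. Opposite calls at 9 h were made for 1006 risen (8.39%) and 410 fallen contigs (4.02%), where 11.2% of all contigs fell and 11.7% rose. Each contig has 1 spread estimate in all 3 comparisons, so their calls are not independent. A rare contig can also pass the filter on low counts through SU5402 libraries alone, and then leans to a rise. Calls at 3, 6 and 9 h together were made for 3356 risen (28%) and 2602 fallen contigs (25.5%), where 6.04% of all contigs tested rose and 5.46% fell at both 6 and 9 h.

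Sizes were smaller at the later collections, where exposure and age of the embryos both increase and cannot be told apart. For the 3632 contigs beyond 2-fold upward at 3 h, the median log2 fold change was 3.27 at 3 h, 1.98 at 6 h and 1.24 at 9 h. With contigs of 0 reads in a group set at their bound (a floor of 3 reads over the pair), the medians were 3.15, 1.8 and 1.18. For the 430 contigs beyond 2-fold downward they were -1.78, -1.42 and -0.85. These contigs were picked on the 3 h libraries, so a part of the drop is built into the choice. Of the 3632, 2478 (68.2%) rose at 6 h and 1898 (52.3%) at 9 h, and of the 430, 346 (80.5%) fell at 6 h and 283 (65.8%) at 9 h. Of all contigs tested, 11% rose and 10.6% fell at 6 h, and 11.7% rose and 11.2% fell at 9 h. The limits of the shared spread and of the filter hold here too, and these counts only describe the contigs.

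The change of the effect itself was tested over all contigs, without that choice. The 6 h libraries had 15 PCR cycles and the others 12, within each time alike for SU5402 and DMSO. Between 3 and 6 h the effect moved up at 1000 contigs (1.37%) and down at 2507 (3.43%). Between 3 and 9 h it moved up at 5084 (6.96%) and down at 6327 (8.66%). The 9 h counts include 4293 of the contigs risen at 3 h, whose effect had dropped, and 3218 of those fallen at 3 h, whose effect had moved up. Those calls and this contrast share the 3 h libraries, so this split is partly built into the choice. The 6 h counts were small and moved by over 1.5 times when a library was left out. Upward changes numbered 645 without DMSO late 3 h replicate 2, 586 without SU5402 late 3 h replicate 1, 486 and 474 without DMSO late 6 h replicate 1 or 2, and 619 and 507 without SU5402 late 6 h replicate 1 or 2. Downward changes numbered 1670 without DMSO late 3 h replicate 2, and 1431 and 1657 without DMSO late 6 h replicate 1 or 2. The single fit of all 24 libraries called 68 upward and 494 downward changes at 6 h, and 885 and 2178 at 9 h. DESeq2 called 558 upward changes at 6 h, and 2538 upward and 3791 downward at 9 h.

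**Figure D4:**
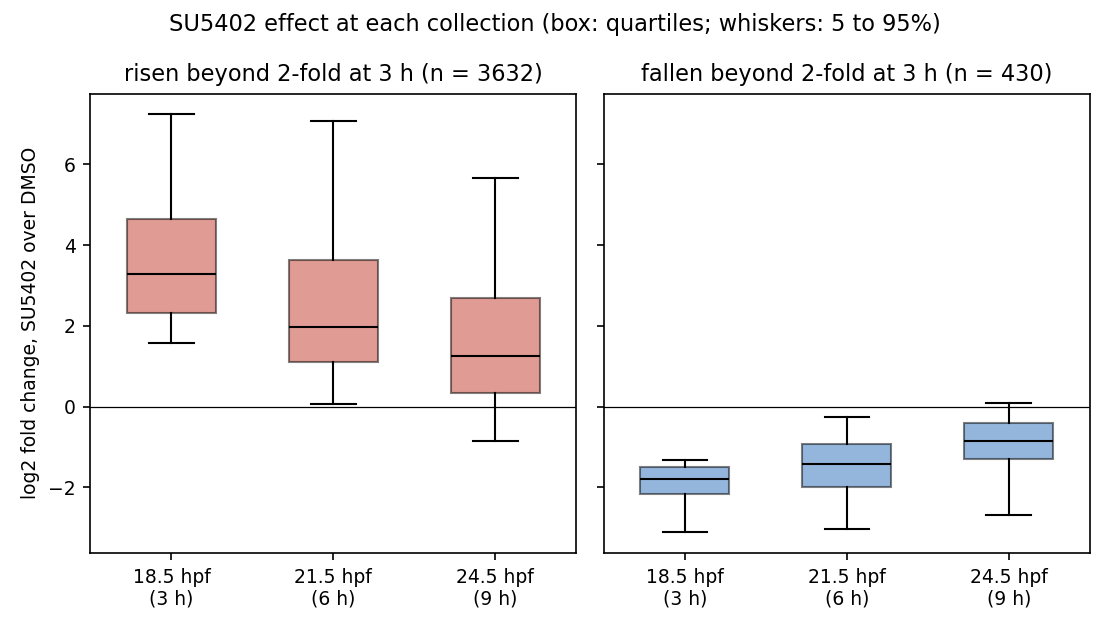
Log2 fold change of SU5402 over DMSO at 18.5, 21.5 and 24.5 hpf for the 3632 contigs risen and the 430 fallen beyond 2-fold at 3 h (box, quartiles with the median as a line; whiskers, 5 to 95% of contigs). The medians are 3.27, 1.98 and 1.24 for the risen and -1.78, -1.42 and -0.85 for the fallen contigs.

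Some contigs were called in the same direction at 3 h in the late and in the early series, which are other libraries. Of 62963 contigs tested in both series, 10543 rose with late and 3849 with early treatment, and 1862 rose in both, which is 17.7% of the late and 48.4% of the early list. Falls numbered 9462 late and 6638 early, with 2320 in both (24.5% of the late and 35% of the early list). Of all contigs tested in both series 6.11% rose and 10.5% fell with early treatment, and of the 77193 contigs of the early fit 8.34% and 8.72%. With late treatment 16.4% of the 73087 contigs of the late fit rose and 14% fell. A rare contig can pass both filters through SU5402 libraries alone and then leans to a rise in both series, so the overlaps only describe the contigs. Opposite calls were made in other contigs. Of the late risen 692 (6.56%) fell early, and of the late fallen 288 (3.04%) rose early. Both shares lay under the 10.5% and 6.11% of all contigs tested in both series. The spread was 27.2% in the early fit and 6.83% in the late one, so the same change is harder to call early, and the list sizes are not alike. A contig called in 1 series only is not shown to differ between them.

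The late risen contigs were also followed at the later early collections. Of the 3632 beyond 2-fold upward, 2912 passed the filter of the early fit, and 1002 were called risen at 8 hpf, 1650 at 11 hpf and 1964 at 14 hpf. The early median of the 3632 was at most 0.209 CPM in DMSO groups, so some of the 2912 may have passed that filter on low counts through the SU5402 libraries alone, and such contigs had to differ. The counts therefore describe these contigs and support nothing on how far the 2 series share a response. Of all contigs tested in both series 6.11%, 10.4% and 10.1% rose at the 3 times, and of the whole early fit 8.34%, 13.9% and 13.1%. Of the 430 beyond 2-fold downward, 355 were tested early, and 90, 65 and 92 of them were called fallen, where 10.5%, 10.9% and 8.83% of all contigs tested in both series and 8.72%, 8.93% and 7.25% of the whole early fit fell. The same limit of the filter holds for them. These early comparisons differ in age and exposure from each other and from the late one.

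The difference between the 3 h effects, late minus early, was above 0 at 6069 contigs (6.94% of 87512) and below 0 at 3797 (4.34%). This was tested with limma-voom, giving each stage its own variance weight, at an adjusted p under 0.05. When the TMM scaling factors (trimmed mean of M-values) came from abundant contigs alone the split turned, to 3428 above and 6311 below, so its direction depends on the scale. Early libraries also moved these counts, to 3700 and 2028 without DMSO early 3 h replicate 1, 4629 and 1987 without DMSO early 3 h replicate 2, and 3591 and 2254 without SU5402 early 3 h replicate 1. On the main scale, the difference was called above 0 at 8.08% and below 0 at 4.15% of the 73087 contigs of the late fit. Of the 10543 late risen contigs tested in both series, 2870 (27.2%) had a difference above 0 and 172 one below 0. Of the 9462 late fallen contigs, 1375 (14.5%) had one below 0 and 417 one above 0. The late calls and this difference use the same late libraries, so both splits are partly built in.

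Control embryos gave the course of the same contigs without the inhibitor. From 8 to 14 hpf, 20.6% of the contigs of the early fit rose and 20.3% fell in DMSO embryos, and among those also tested in the late series 24.7% rose and 19% fell. Of the 9462 contigs fallen at 18.5 hpf and tested there, 3446 (36.4%) rose and 1944 (20.5%) fell, and of the 10543 risen ones 2289 (21.7%) rose and 2260 (21.4%) fell. Of the 2912 contigs beyond 2-fold upward, 307 (10.5%) rose and 694 (23.8%) fell over that time. Over all 3632, the DMSO median was 0.209 CPM at 8 hpf and 0.132 CPM at 14 hpf. For all contigs of the late fit it was 1.15 and 1.24 CPM, so few reads limit the calls of this set in both directions. The 355 beyond 2-fold downward held 102 risen (28.7%) and 136 fallen (38.3%). From 21.5 to 24.5 hpf, where PCR cycles differ between the ends (15 and 12), 384 (10.6%) of the 3632 rose and 26 (0.716%) fell. At 21.5 hpf their DMSO median was 0.218 CPM, against 1.37 CPM for all contigs tested. From so low a level a fall can hardly be called, so the small share of falls does not show a course. Of the 430, 56 (13%) rose and 21 (4.88%) fell over those 3 h, and of all contigs 5.86% rose and 4.27% fell. Neither fold change uses a library of the 18.5 hpf comparison, but the tests from 21.5 to 24.5 hpf take their spread from the joint late fit, which holds those libraries, so these calls are not independent of the choice of contigs.

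The levels of these contigs in CPM were as follows. The 3632 contigs had a median of 1.43 CPM in SU5402 and 0.114 CPM in DMSO embryos at 18.5 hpf. With SU5402 the median was 0.666, 1.03 and 1.32 CPM at 8, 11 and 14 hpf, and 0.998 and 0.793 CPM at 21.5 and 24.5 hpf. In DMSO embryos it was 0.209, 0.135 and 0.132 CPM at 8, 11 and 14 hpf, and 0.218 and 0.275 CPM at 21.5 and 24.5 hpf. The 430 contigs stood at a median of 1.32 CPM in SU5402 and 4.7 CPM in DMSO embryos at 18.5 hpf. Their SU5402 medians at the other collections were 1.65, 1.53 and 1.52 CPM at 8, 11 and 14 hpf and 1.42 and 2.36 CPM at 21.5 and 24.5 hpf. Their DMSO medians were 2.18, 1.66 and 2.27 CPM at 8, 11 and 14 hpf and 3.95 and 4.51 CPM at 21.5 and 24.5 hpf. The risen contigs stood above controls and the fallen ones below them in the median of every collection, which at 18.5 hpf follows from the choice. The median of all contigs tested was also higher with SU5402 at every collection, such as 1.34 against 1.24 CPM at 14 hpf. The DMSO groups at 24.5 and 14 hpf, both with 12 cycles, were also compared. Of the 430 contigs, 382 had at least 1 CPM in either group. Of these, 161 (42.1%) were at least 2-fold higher at 24.5 hpf and 116 (30.4%) at least 2-fold lower. Among all tested contigs at that level the shares were 26.6% and 18.1%. Of the contigs beyond 2-fold upward, 1175 reached 1 CPM in either group, and 58.3% were at least 2-fold higher and 16.1% lower at 24.5 hpf. A rare contig can reach 1 CPM through the higher group alone, and then leans to a 2-fold difference. Of the 3632, 1175 passed, against 48811 of all 73087, so their shares cannot be set against each other. These 2-fold counts are descriptions with no test, and series and age move together between these groups.

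**Figure D5:**
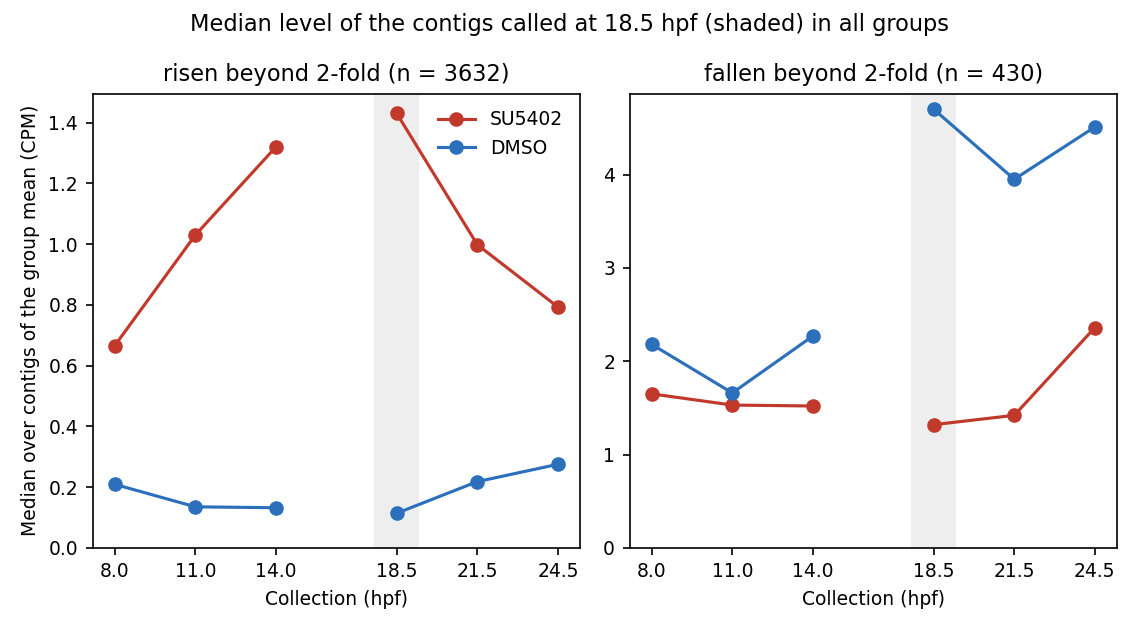
Median over contigs of the group mean (CPM) for the 3632 contigs risen and the 430 fallen beyond 2-fold at 18.5 hpf (shaded), in SU5402 (red) and DMSO (blue) embryos at each collection. The lines break between the early series (8 to 14 hpf) and the late one, and only the shaded collection enters the fold changes by which the contigs were chosen. The SU5402 median of the risen contigs is 1.43 CPM and the DMSO median 0.114 CPM at 18.5 hpf.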

How the data were processed

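RNA was measured in whole embryos. Per the labels' protocols, libraries were made from poly(A) RNA (2 µg total RNA each) with random primers and no strand marking, and PCR ran 15 cycles for 6 h libraries and 12 for 3 h and 9 h libraries. The authors deposited raw read counts per contig for 24 libraries. Per the submitters' processing notes the aligner was BWA 0.6.1. How contigs were assembled and reads assigned to them is not given in the sources used here. A gene can be split over contigs, near-identical copies can share reads, and overlapping genes cannot be told apart.

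From the counts, edgeR 4.0.16 (R 4.3.3) was run with filterByExpr (73087 contigs kept, with 99.76% or more of every late library), TMM factors and 1 coefficient per group on the 12 late libraries (6 residual degrees of freedom), with glmQLFTest, glmTreat against 2-fold and Benjamini-Hochberg adjustment at 0.05, all two-sided. The 12 early libraries were fitted likewise (77193 contigs). Late minus early effects were tested with limma 3.58.1 on all 24. The SE is the log2 fold change over the square root of F for edgeR. Levels are CPM with TMM factors of all 24 libraries. Tests were tried on simulated counts in which a small part of the contigs, all of at least 1 CPM, was changed. That trial does not cover rarer contigs or a response as wide as the one here, and no result rests on it. The replicate number was not used as a block: its differences correlated at 0.014 between the SU5402 and DMSO pairs at 18.5 hpf. Contigs described singly are, per direction, the called ones with the smallest p and the largest CPM difference, given 10 reads in each of the 4 libraries. Alternatives were DESeq2 1.42.0, other scalings and filters, and leaving out libraries. The contigs and lists were chosen with earlier results of these data known.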

Additional observations from a re-analysis of the deposited data

Results flagged for a closer look

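Tested as late minus early, the SU5402 effect at 3 h differed at 6069 contigs above 0 and 3797 below 0 (limma). Within the late series it differed between 6 h and 3 h at 1000 contigs upward and 2507 downward, and between 9 h and 3 h at 5084 upward and 6327 downward (edgeR). The contigs described singly were picked on the late 3 h libraries, which enter all of these differences, so their shifts are partly built in. Among them, the tested difference late minus early was 3.93 for ContigAmph24501 and -3.87 for ContigAmph11043 on the log2 scale. The value of ContigAmph11043 rests on 0 to 2 reads in each early 3 h library. Its adjusted p was 0.018 with all libraries (limma), 0.07 in edgeR's single fit of them, 0.2 without DMSO early 3 h replicate 1, 0.11 without SU5402 early 3 h replicate 1 and 0.05 without SU5402 early 3 h replicate 2. Between 6 h and 3 h the effect moved by 1.93 for ContigAmph11043 and by 5.33 for ContigAmph68708. Without SU5402 late 6 h replicate 1 the change of ContigAmph68708 was 1 (adjusted p = 0.17, edgeR), and with all libraries its adjusted p was 0.13 by limma-voom and 0.15 in the single fit of 24. Between 9 h and 3 h the effect moved by -0.83 for ContigAmph24501, -0.48 for ContigAmph3515, 2.8 for ContigAmph11043 and 3.02 for ContigAmph68708. The last had an adjusted p of 0.027 with all late libraries, and of 0.06 to 0.11 when DMSO late 3 h replicate 1, either SU5402 late 3 h library or either DMSO late 9 h library was left out. It was 0.14 by DESeq2, 0.15 by limma-voom and 0.35 in the single fit. For ContigAmph3515 the single fit gave 0.064.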

How the results depend on the processing

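Apart from single libraries left out, 200 of the recomputed values kept their direction and call, or stayed within 1.5 times for counts. Of the others 16 counts moved further, 11 values lost their call and 1 changed sign. The single fit of all 24 libraries gave 7509 risen, 4179 fallen and 196 fallen beyond 2-fold at late 3 h. It gave 68 upward and 494 downward changes from 3 to 6 h, and 885 and 2178 from 3 to 9 h. DESeq2 (Wald) called 7757 contigs risen, 6341 fallen, 558 upward changes to 6 h, and 2538 upward and 3791 downward changes to 9 h. limma-voom gave 210 contigs fallen beyond 2-fold, and the filter at 1 CPM in 2 libraries left 2418 risen beyond 2-fold. TMM factors from abundant contigs gave 3428 contigs above and 6311 below 0 for late minus early. The cause of these moves was not tested.

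With 1 library left out, late 3 h gave 9227 to 10286 risen, 7348 to 8090 fallen, 2754 to 3331 risen beyond 2-fold and 309 to 362 fallen beyond 2-fold. Changes numbered 474 to 979 upward and 1431 to 2628 downward to 6 h, and 3532 to 4346 upward and 4795 to 5959 downward to 9 h. Late minus early gave 3591 to 5338 above and 1987 to 3611 below 0. Values near 0 changed sign. The 6 h minus 3 h effect of ContigAmph24501 was -0.16 with all libraries, and -0.57 to 0.22 with 1 left out (0.22 without DMSO late 3 h replicate 2, 0.06 without DMSO late 6 h replicate 1). That of ContigAmph3515 was -0.03, and 0.02 with library totals, 0.16 and 0.03 without DMSO or SU5402 late 3 h replicate 1, and 0.02 without SU5402 late 6 h replicate 2, the lowest being -0.23 without DMSO late 3 h replicate 2, where it was called (adjusted p = 0.015, edgeR). Its late minus early effect was -0.11, and 0.14 without DMSO late 3 h replicate 2, the lowest being -0.25 without DMSO late 3 h replicate 1, also called (adjusted p = 0.04, limma).

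With the replicate number as a block, 11800 contigs rose and 10012 fell at late 3 h, and 3610 and 430 lay beyond 2-fold. Changes numbered 915 upward and 2405 downward to 6 h and 4883 and 6128 to 9 h, and late minus early gave 6711 above and 4206 below 0. The block changed no call of the 4 contigs described singly. The number is not shown to pair the samples, since correlations of replicate differences between late groups ran from -0.35 to 0.16. At low levels depth limits the calls: 3 reads over the DMSO pair at 18.5 hpf are 0.0434 CPM.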

Other observations

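A set of 479 tested contigs had 0 reads in both DMSO libraries at 18.5 hpf, which allows up to 0.0434 CPM (3 reads over the pair, counting error only), and 408 of them were called risen with SU5402 (edgeR quasi-likelihood test, adjusted p under 0.05), where 16.4% of all contigs tested were. With 0 reads in the controls a contig can only be higher with SU5402, and it had to pass the filter on low counts through other groups, so this count is set by the choice and is only a description. These 408 held 5 to 1362 reads in the SU5402 pair, with a median of 0.504 CPM and a highest level of 22.9 CPM, and 90 reached 1 CPM. At 6 h and 9 h of late treatment 54 and 47 of them were at 1 CPM or more in SU5402 embryos. In early SU5402 embryos 100 were at that level at 8 hpf and 168 at 14 hpf. In DMSO embryos 20 were at 8 hpf, 0 at 14 hpf and 11 at 24.5 hpf, and 26 had 0 reads in all 12 DMSO libraries. In the other direction, 87 tested contigs had 0 reads in both SU5402 libraries at 18.5 hpf, and 21 of these fell, from at most 0.511 CPM in DMSO embryos. Of all contigs tested 14% fell. With 0 reads in SU5402 a contig can only be lower there, so this count too is only a description.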
